A study of Drosophila melanogaster with 2 samples.

Results

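Aminoacyl-tRNA synthetases are the enzymes that join each amino acid to its transfer RNA (tRNA). They were represented by 35 of the 13945 protein-coding genes on the 6 chromosome arms analysed, chosen by symbol alone: an amino acid code, alpha-Phe, beta-Phe or GluPro, then RS, with the suffix -m for the enzyme of the mitochondrion. The suffix divided them into 20 genes for cytoplasmic enzymes and 15 for mitochondrial ones. The study mapped HmgZ, a chromatin protein of the high mobility group box family, whose members bend DNA, by chromatin immunoprecipitation and sequencing (ChIP-seq) in intact embryos of Drosophila melanogaster, 4 to 24 h old and of mixed sex. The embryos came from 1 transgenic line that stably expresses HmgZ with green fluorescent protein at its C-terminus. There was 1 group of 2 biological replicates, numbered 1 and 3, and the tagged line was the only genotype, so no second condition was compared. Whole embryos hold many cell types, and binding in fewer cells cannot be told apart from weaker binding in each.

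Every cell needs an enzyme for each amino acid, because a charged tRNA is the form in which amino acids reach the ribosome. Mitochondria make proteins with ribosomes of their own, and the mitochondrial enzymes are encoded in the nucleus, made in the cytoplasm and imported. In animals several cytoplasmic synthetases, with the scaffold proteins AIMP1, AIMP2 and AIMP3, assemble into a multisynthetase complex. The enzymes fall into a class I and a class II by the fold of their catalytic domain, and PheRS of the cytoplasm is built from alpha and beta subunits.

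A gene was called bound where the summit of a deposited peak that passed the irreproducible discovery rate (IDR) threshold lay within 250 bp of a transcription start site (TSS) of the gene. By that rule 22 of the 35 synthetase genes were bound (62.9%, 95% Wilson interval 46.3 to 76.8), beside 4574 of all 13945 protein-coding genes (32.8%). The cytoplasmic enzymes had 14 of 20 genes bound (70.0%, 48.1 to 85.5), and the mitochondrial enzymes had 8 of 15 (53.3%, 30.1 to 75.2). The intervals of the 2 groups overlap and the difference between them was not tested. The members are genes of a list and no replicates of a condition, so these shares are a description without a p-value.

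The sequence under the summit is shown for the 3 cytoplasmic and the 3 mitochondrial genes with the highest mean percentile of signal over the replicates among those on arms 2L, 3L, 3R and X. Each line holds 50 bases to each side of the summit, which is the middle base, in the direction of the gene's transcription, from the RefSeq genome of the Release 6 assembly (dm6). Capitals mark matches on either strand to the 12 motifs that were searched, here the initiator (TCAGTT), the TATA box (TATAAA) and the E-box (CAGCTG).
SerRS (chr2L:3037342-3037442, minus strand): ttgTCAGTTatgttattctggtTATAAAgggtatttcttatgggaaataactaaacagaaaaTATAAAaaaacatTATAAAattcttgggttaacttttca
GluProRS (chr3R:23958490-23958590, minus strand): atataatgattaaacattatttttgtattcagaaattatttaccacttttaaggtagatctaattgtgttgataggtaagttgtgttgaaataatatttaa
IleRS (chr3L:22288475-22288575, plus strand): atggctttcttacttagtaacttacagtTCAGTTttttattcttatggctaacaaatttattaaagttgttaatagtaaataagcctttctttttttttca
LeuRS-m (chr3L:4825723-4825823, plus strand): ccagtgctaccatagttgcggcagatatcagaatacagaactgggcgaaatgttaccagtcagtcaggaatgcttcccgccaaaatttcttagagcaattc
ArgRS-m (chr3R:7886861-7886961, plus strand): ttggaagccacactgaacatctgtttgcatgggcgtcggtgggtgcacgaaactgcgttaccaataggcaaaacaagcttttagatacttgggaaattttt
AlaRS-m (chr3L:5146015-5146115, plus strand): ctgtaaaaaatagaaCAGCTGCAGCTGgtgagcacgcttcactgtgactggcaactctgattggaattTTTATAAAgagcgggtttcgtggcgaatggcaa
No motif was matched in the windows of GluProRS, LeuRS-m and ArgRS-m. The AlaRS-m window held a pair of CAGCTG sites side by side and a pair of overlapping TATA box matches on opposite strands, and the SerRS window held 3 TATA box matches.

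Signal is given per replicate as a multiple of the median over that replicate's own list of 30000 regions, which puts the 2 replicates on like scales. Over the bound members found in both lists the median ratio of replicate 3 to replicate 1 was 1.17, and over all bound protein-coding genes it was 1.26. Sequencing depth is unknown, since read counts are not part of the lists. As a check of the tagged protein's own locus, 4 thresholded summits lay inside the HmgZ gene, the strongest ranked 3 of 6844. The free text of both labels speaks of an input, while antibody, assay name and peak lists describe an HmgZ ChIP, and the samples were used as such. Gene positions are given in dm6, from the Ensembl annotation. A ChIP of embryos without the tag was not analysed here.

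The strongest synthetase peak was at SerRS, the seryl enzyme (2L 3035493 to 3037403). Its signal stood at 6.76 list medians in replicate 1 and at 9.60 in replicate 3, with rank 377 among the thresholded peaks. It was the only member in the top 500, which held 428 of the 4574 bound protein-coding genes. GluProRS, a fused enzyme for glutamate and proline (3R 23952136 to 23958391), had 5.48 and 9.06 in the same order. IleRS, the isoleucyl enzyme (3L 22288665 to 22292810), had 4.34 and 7.75. All 3 were higher in replicate 3, by more than the general offset between the lists.

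Both subunits of cytoplasmic PheRS were bound. The beta subunit gene, beta-PheRS (3R 24250460 to 24252679), had 4.03 in replicate 1 and 7.92 in replicate 3. The gene of the catalytic alpha subunit, alpha-PheRS (X 8143904 to 8145602), had 3.77 and 3.95. The subunit genes thus differed less in replicate 1 than in replicate 3. GlnRS, for glutamine (3R 25263267 to 25265721), had 5.28 and 5.83. TrpRS, for tryptophan (3R 9265027 to 9266904), had 4.97 and 3.71, and with CysRS and ProRS-m it was lower in replicate 3, unlike the other 18 of 21 members with both values. AsnRS, for asparagine (2L 19129469 to 19131954), had 3.61 and 4.33.

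The other 6 bound cytoplasmic genes had a lower mean over the replicates. ThrRS, for threonine (2L 12103751 to 12107170), had 1.89 in replicate 1 and 5.05 in replicate 3, and in replicate 1 it ranked 7138, outside the 6844 strongest regions. MetRS, the methionyl enzyme (2R 18846858 to 18850599), had 2.02 and 4.12. HisRS, for histidine (X 18515428 to 18520445), had 2.94 and 3.44. LysRS, for lysine (X 9606363 to 9608884), had 2.76 and 2.93, CysRS, for cysteine (2R 16143147 to 16145906), had 2.71 and 2.33, and AlaRS, for alanine (2L 8378262 to 8381764), had 2.37 and 2.64. Over the 14 bound cytoplasmic genes the median was 3.69 in replicate 1 and 4.22 in replicate 3, beside 3.17 and 3.94 over all bound protein-coding genes.

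Among the mitochondrial enzymes the strongest peaks were at LeuRS-m and PheRS-m. LeuRS-m, the leucyl enzyme (3L 4825853 to 4829038), had 3.14 in replicate 1 and 6.25 in replicate 3. PheRS-m, for phenylalanine (2R 13968308 to 13969902), had 3.70 and 5.20. ArgRS-m, for arginine (3R 7887045 to 7890150), had 3.00 and 4.22. These were the 3 mitochondrial genes within the strongest 3422 thresholded peaks, which held 10 of the cytoplasmic genes. AlaRS-m (3L 5146098 to 5149852) had 2.64 and 3.07, and TyrRS-m, the tyrosyl enzyme (2R 24781726 to 24783500), had 2.46 and 2.60.

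The remaining 3 bound mitochondrial genes lay near the threshold. ProRS-m (3L 2650161 to 2651850), for proline, had 2.11 and 1.71, and its peak ranked 6799 of 6844. TrpRS-m (3L 17849727 to 17852453) had 1.59 and 1.79 at rank 6750, and in neither replicate was it among the 6844 strongest regions. AspRS-m (2L 16827078 to 16832093), for aspartate, had 2.07 in replicate 3, at rank 7012, and no region of replicate 1 within 100 bp of its summit. In replicate 1 it was still bound by the 250 bp rule, through a region farther from that summit. The median over bound mitochondrial genes was 2.64 in replicate 1 (7 genes) and 2.83 in replicate 3 (8 genes). The largest mitochondrial value, 6.25 in replicate 3, lay below 4 cytoplasmic values of that replicate.

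**Figure D1:**
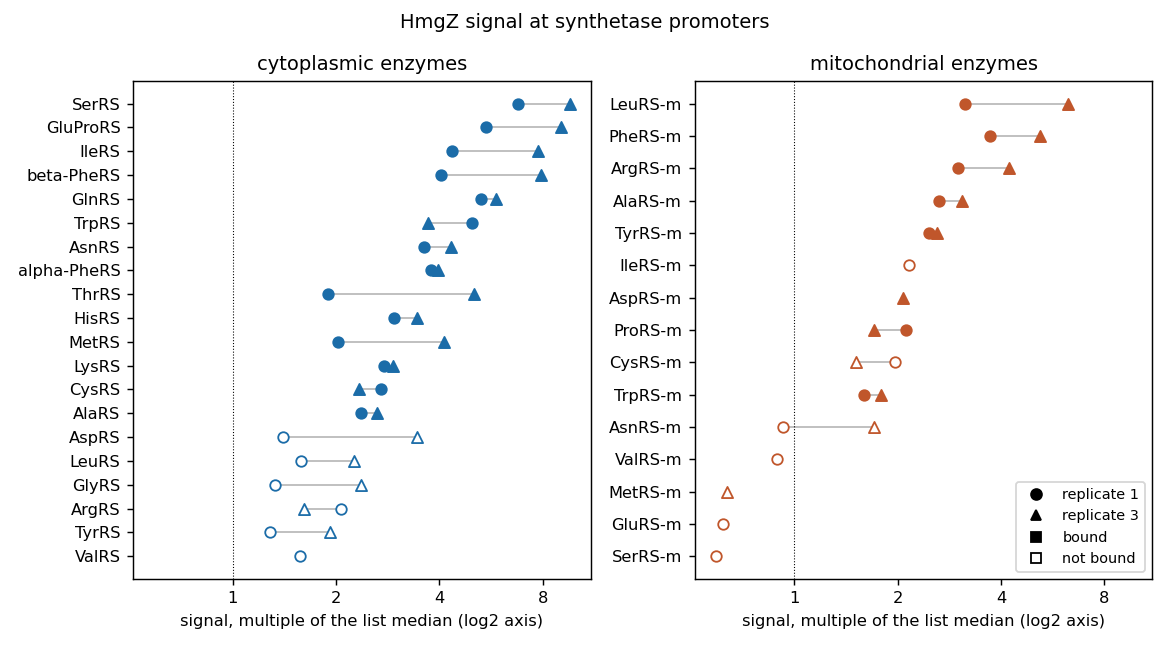
Signal at each synthetase promoter in replicate 1 (circles) and replicate 3 (triangles), as a multiple of the median of that replicate's list on a log2 axis, with filled symbols for bound genes and open ones for genes not bound (their strongest region within 250 bp of a TSS, where a list has one). The bound cytoplasmic genes lie between 1.89 and 9.60, the bound mitochondrial genes between 1.59 and 6.25, and the values below 1 are those of MetRS-m, GluRS-m, SerRS-m and ValRS-m and the replicate 1 value of AsnRS-m.

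Most of the 13 genes not bound had a region under the threshold. In the pooled list of 30000 regions, from which the threshold took the 6844 of highest signal, 10 of the 13 showed a region whose summit met the distance limit. AspRS (2R 12877004 to 12883168) had one at rank 6986, ArgRS (X 15841769 to 15844145) at rank 7014, LeuRS (2L 3510328 to 3514656) at rank 7026 and CysRS-m (2R 14159096 to 14161262) at rank 7154, just outside. Just inside lay ProRS-m at 6799 and TrpRS-m at 6750. These genes around the threshold thus have nearly the same pooled signal, from 2.02 times the list median at CysRS-m to 2.10 at TrpRS-m, and different calls.

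Farther down came IleRS-m (3L 16100280 to 16103482) at rank 7785, TyrRS (3L 16417349 to 16419302) at 8149 and GlyRS (3L 15095142 to 15097686), the glycyl enzyme, at 10089. AsnRS-m (2R 17001994 to 17003599) followed at 12380. Both valine enzymes were low in the pooled list, ValRS (2R 13198850 to 13202709) at 20831 and ValRS-m (3L 8961274 to 8964769) at 23518. In replicate 1 ValRS had 1.57 times the median, at rank 9184, and ValRS-m had 0.892. Neither had a region within 250 bp of a TSS in replicate 3. No pooled region lay within 250 bp of a TSS of GluRS-m (3L 16415292 to 16417177), MetRS-m (3R 14249043 to 14259991) or SerRS-m (3R 15340667 to 15343218), all mitochondrial. Each of these 3 had a region in 1 replicate only, at 0.619 times the median in replicate 1 for GluRS-m, 0.589 in replicate 1 for SerRS-m and 0.638 in replicate 3 for MetRS-m. Over the whole pooled list 20 of 20 cytoplasmic and 12 of 15 mitochondrial genes had a region, beside 54.6% of all protein-coding genes.

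**Figure D2:**
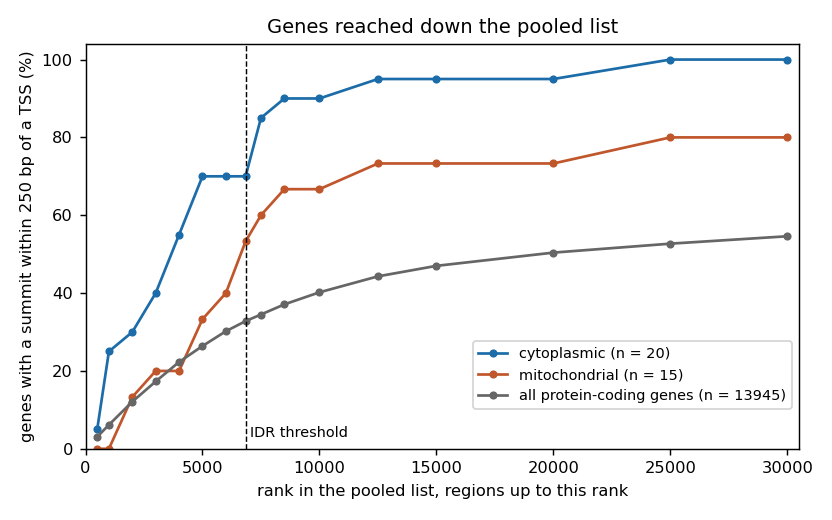
Percent of genes with a summit within 250 bp of a TSS (vertical axis) among the regions of the pooled list up to a given rank (horizontal axis), for cytoplasmic and mitochondrial synthetase genes and all protein-coding genes, with the IDR threshold dashed at rank 6844. At rank 5000 the shares are 70.0%, 33.3% and 26.4%, and up to rank 1000 there are 5 cytoplasmic genes, 0 mitochondrial genes and 6.15% of all genes.

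The calls were read in each replicate on its own, with the 6844 strongest regions of its list. In replicate 1 there were 14 cytoplasmic and 9 mitochondrial genes bound, beside 31.2% of all protein-coding genes. In replicate 3 there were 17 and 5, beside 33.1%, so the mitochondrial share there (33.3%) was near the background while the cytoplasmic share was 85.0%. The mitochondrial count therefore depended on the replicate, being 5 of 15 without replicate 1. AspRS, GlyRS and LeuRS were bound in replicate 3 and not in the thresholded set, and ArgRS, CysRS-m and IleRS-m likewise in replicate 1. ThrRS and TrpRS-m were not bound in replicate 1, and AspRS-m, ProRS-m and TrpRS-m were not bound in replicate 3. With thresholded peaks that had a summit within 100 bp in the strongest regions of both replicates, 13 cytoplasmic and 5 mitochondrial genes were bound (25.2% of all genes). In the strongest 3422 peaks 10 of 20 and 3 of 15 were bound, beside 19.5%, and in the strongest 1711 peaks 6 and 2, beside 10.3%. With summits within 100 bp of a TSS, 10 and 7 were bound (21.6% of all genes). The cytoplasmic share was above the background under each of these rules, whereas the mitochondrial share was close to it in replicate 3 and in the strongest peaks.

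**Figure D3:**
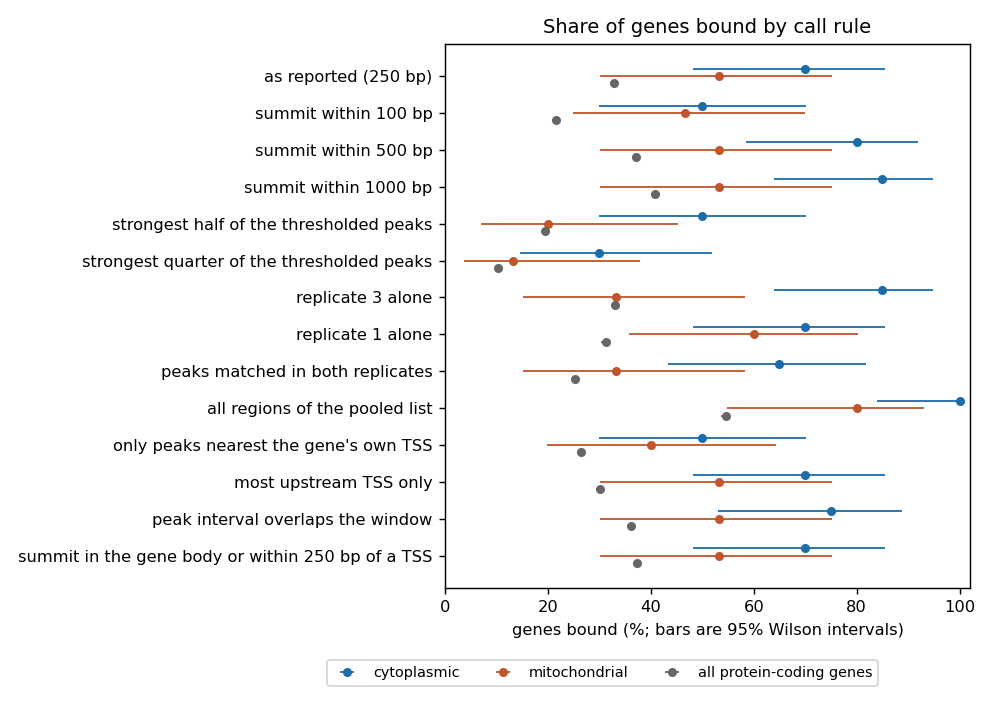
Percent of genes bound (horizontal axis) under the reported rule and each of 13 others, for cytoplasmic and mitochondrial synthetase genes and all protein-coding genes, with 95% Wilson intervals that cover counting error only. The cytoplasmic point lies right of the mitochondrial point in all 14 rows, and their intervals overlap in all of them except replicate 3 alone.

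By amino acid, 15 had a mitochondrial gene of their own. Both enzymes were bound for 4 of these: alanine, phenylalanine, proline and tryptophan, with GluProRS counted for glutamate and for proline. The cytoplasmic gene alone was bound for 6 (asparagine, cysteine, glutamate, isoleucine, methionine and serine), the mitochondrial gene alone for 4 (arginine, aspartate, leucine and tyrosine), and neither for valine. For serine, SerRS had the strongest synthetase peak and SerRS-m no pooled region. For the other 5 amino acids (glutamine, glycine, histidine, lysine and threonine) the list held no gene with the suffix -m. In animals GlyRS and LysRS serve both compartments from a single gene, and mitochondrial glutaminyl-tRNA is made by an amidotransferase from a glutamate-charged tRNA. Of these 5 genes 4 were bound, all but GlyRS.

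Class II enzymes had 12 of 16 genes bound and class I enzymes 9 of 18, beside 32.8% of all genes, leaving out GluProRS, which joins an enzyme of each class. Wilson intervals were 50.5 to 89.8% and 29.0 to 71.0%, which overlap. In replicate 1 alone class II and class I were closer, at 11 of 16 (68.8%) and 11 of 18 (61.1%), beside 31.2% of all genes. In the strongest 1711 peaks their order was reversed, at 3 of 16 (18.8%) and 4 of 18 (22.2%), beside 10.3% of all genes. Of the 8 enzymes of the multisynthetase complex 5 were bound (GluProRS, IleRS, MetRS, GlnRS and LysRS), and ArgRS, AspRS and LeuRS were the ones just past the threshold. With summits within 100 bp of a TSS 2 of the 8 were bound, beside 21.6% of all genes. With peaks given only to the gene of the nearest TSS, 1 of the 8, IleRS, was bound, and 9 of the 12 cytoplasmic genes outside the complex, beside 26.4% of all genes. By chromosome arm the bound members were 5 of 6 on 2L, 4 of 8 on 2R, 5 of 10 on 3L, 5 of 7 on 3R and 3 of 4 on X, beside 29.9 to 34.9% of all genes on these arms.

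The summits lay mostly upstream of the gene's start. At 19 of the 22 bound genes the summit was upstream of the nearest TSS of the gene, with a median of -54.5 bp (quartiles -90.2 and -33.8), beside -64.0 bp (-125 and -16.0) and 82.0% upstream over all bound protein-coding genes. The farthest upstream was GluProRS at -149 bp, followed by MetRS at -142, IleRS at -140 and ThrRS at -139 bp. The 3 downstream summits were at AspRS-m (9 bp), SerRS (11 bp) and TrpRS-m (36 bp). Each bound member had a single thresholded summit within 250 bp.

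**Figure D4:**
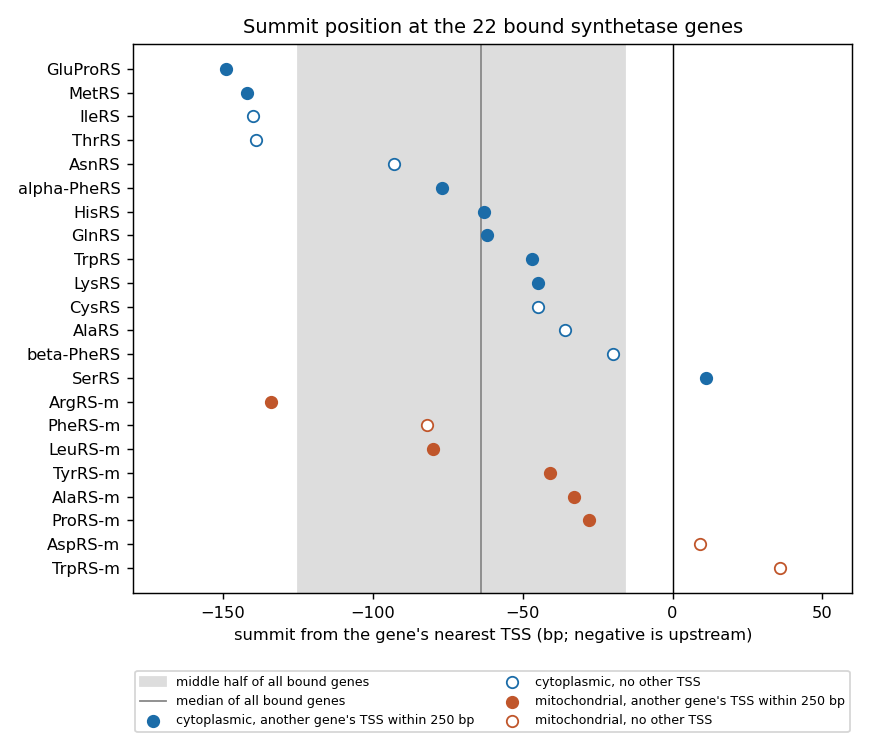
Position of the summit from the nearest TSS of each of the 22 bound synthetase genes in bp, negative upstream, with filled symbols where another gene has a TSS within 250 bp of the summit. The grey band and line give the quartiles (-125 and -16.0 bp) and median (-64.0 bp) of all bound protein-coding genes, and 19 of the 22 points lie left of the TSS.

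Many synthetase genes share their start region with a neighbour that is transcribed away from them. A divergent TSS within 500 bp was present at 22 of 35 members (62.9%), 15 of 20 cytoplasmic and 7 of 15 mitochondrial, beside 29.4% of all protein-coding genes. Genes with such a neighbour were bound in 57.9% of cases over the genome, and members with such a neighbour in 15 of 22 (68.2%). Those members were 10 of 15 cytoplasmic (66.7%) and 5 of 7 mitochondrial genes (71.4%). Genes without a divergent neighbour were bound in 22.3% of cases, and members without one in 7 of 13 (53.8%). These were 4 of 5 cytoplasmic (80.0%) and 3 of 8 mitochondrial genes (37.5%). Among members with a neighbour the order of the compartments changed with the replicate. Cytoplasmic and mitochondrial shares there were 66.7% and 85.7% in replicate 1 alone, and 86.7% and 57.1% in replicate 3 alone. The number of start sites was also compared. Among genes with 1 TSS 27.3% were bound, and among members with 1 TSS 16 of 26. Among genes with more than 1 TSS 48.0% were bound, and among such members 6 of 9. How far this layout bears on the members' share was not tested.

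A shared promoter also leaves unclear which gene a peak belongs to. At 13 of 22 bound members (59.1%) another gene had a TSS within 250 bp of the summit, beside 45.2% of all bound protein-coding genes. The nearest protein-coding TSS was the member's own at 16 of 22 (72.7%), beside 80.6% of all bound protein-coding genes. The exceptions were GluProRS, nearest AP-1sigma, an adaptor subunit of clathrin coats; GlnRS, nearest RIOK2, a kinase of ribosome assembly; MetRS, nearest CG15084; LysRS, nearest Hecw, a ubiquitin ligase; AlaRS-m, nearest Fitm, of the fat storage-inducing family; and TyrRS-m, nearest CG3589. At HisRS a TSS of Bx was equally near. Counting only peaks nearest the gene's own TSS, 10 of 20 cytoplasmic and 6 of 15 mitochondrial genes were bound, beside 26.4% of all genes.

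Of the 15 bound members with a divergent neighbour, the neighbour was bound too at 12. Starts within 500 bp of each other can share a summit within 250 bp of both, so the rule itself links their calls. The same share over all genes is not given here, so the count is no trait of the synthetases. At SerRS the starts of the gene and of CG17260 lay 8 bp apart, at AlaRS-m and Fitm 35 bp, and at LysRS and Hecw 62 bp. At AsnRS, IleRS and ThrRS the neighbour, 369 to 470 bp away, was not bound. Of the 7 members with a neighbour that were not bound, 5 had a neighbour that was not bound either, among them AsnRS-m, whose start was 53 bp from that of ste24a, a membrane protease. GlyRS and AspRS were the reverse cases, not bound beside a bound neighbour. For GlyRS a thresholded summit lay -298 bp from its TSS, nearest Plp, a centrosome gene. For AspRS, with a divergent start 38 bp away, the nearest thresholded summit was -478 bp away, nearest Lfg. For ValRS, which had no divergent neighbour, the nearest thresholded summit was -570 bp away, nearest Kdm4B. The start of GluRS-m followed the end of TyrRS on the same strand after 171 bp, and neither was bound.

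Motif matches were counted from 250 bp before to 50 bp after the most upstream TSS of each gene, on both strands. The E-box CAGCTG, which forms the centre of Ohler motif 5, a core promoter element, was matched in 17 of 35 member promoters (48.6%), beside 17.7% of all protein-coding promoters and 23.7% of those of bound genes. It was matched in 13 of 22 bound and 4 of 13 unbound members, a difference that was not tested. In the window of 100 bp to each side of the TSS it was matched in 14 members, 9 of 22 bound (40.9%) and 5 of 13 unbound (38.5%), beside 13.8% of all promoters, so that the bound and unbound members were then close. A match describes the letters of the window and no occupied site. The M1BP motif GGTCACACT, a site of the zinc finger protein that occupies many constitutive promoters, was matched in 5 members (14.3%), beside 6.05% of all and 12.2% of bound promoters. These were AspRS-m, GlnRS, ProRS-m, beta-PheRS and AsnRS-m. The DNA replication-related element (DRE) TATCGATA was matched in 5 members (AlaRS, ArgRS, IleRS, PheRS-m and TrpRS), 14.3% beside 9.36% and 17.8%. The BEAF-32 core CGATA, which lies within the DRE so that a site can count for both, was matched in 65.7% of members beside 47.4% and 60.7%.

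**Figure D5:**
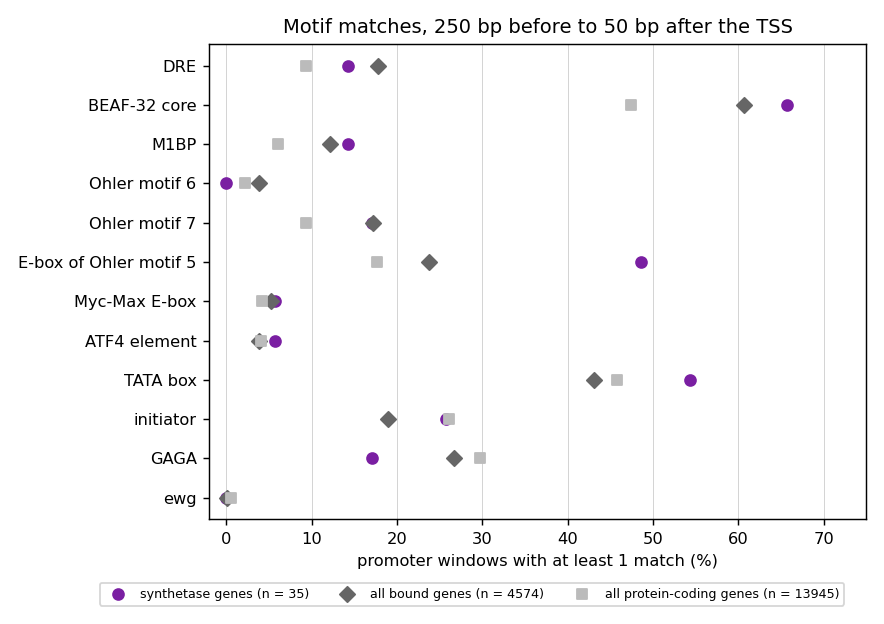
Percent of promoter windows with at least 1 match to each of 12 motifs, for synthetase genes, all bound protein-coding genes and all protein-coding genes. The E-box of Ohler motif 5 has the widest gap, at 48.6%, 23.7% and 17.7%, and Ohler motif 6 and ewg have no match in the synthetase promoters.

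Of the other motifs, Ohler motif 7 was matched in 6 members (17.1% beside 9.29% of all promoters), and GAGA (GAGAG) in 6 (17.1% beside 29.7%). The TATA box was matched in 19 (54.3% beside 45.8%) and the initiator in 9 (25.7% beside 26.1%). These matches to the initiator letters, on either strand, began from -178 (ThrRS) to -32 (ProRS-m) of the TSS, and none lay at it. The E-box CACGTG of Myc and Max was matched in GlnRS and LeuRS-m, and Ohler motif 6 and the ewg motif GCGCATGCG in none. ATF4, encoded by crc, raises synthetase genes in animal cells when amino acids run short, and its element TGATGNAA was matched in CysRS and beta-PheRS, 5.71% beside 4.07%. In the window of 100 bp to each side of the TSS the ATF4 element was matched in 5 members (AsnRS, CysRS, GluProRS, GluRS-m and beta-PheRS), 14.3% beside 2.83%. The matches gained there, at AsnRS, GluProRS and GluRS-m, reach past 50 bp after the TSS, where the first window ends. Within 100 bp of the summit the E-box CAGCTG was matched at 9 of 22 member peaks (40.9%) and at 17.3% of the peaks of all bound genes. There the initiator was at 8 member peaks (36.4% beside 13.5%) and the M1BP motif at 4 (18.2% beside 8.58%). GAGA (9.09% beside 21.0%) and Ohler motif 7 (4.55% beside 12.6%) were lower in members, and these differences were not tested.

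Promoter windows of 300 bases are shown for the 2 motifs found more than 2 times as often in members as in all promoters, with the members of most matches, then of highest mean percentile, on the same arms and not shown above. Capitals mark the E-box CAGCTG or the M1BP motif on either strand, and the TSS is the base after the first 250.
TyrRS (chr3L:16419253-16419552, minus strand): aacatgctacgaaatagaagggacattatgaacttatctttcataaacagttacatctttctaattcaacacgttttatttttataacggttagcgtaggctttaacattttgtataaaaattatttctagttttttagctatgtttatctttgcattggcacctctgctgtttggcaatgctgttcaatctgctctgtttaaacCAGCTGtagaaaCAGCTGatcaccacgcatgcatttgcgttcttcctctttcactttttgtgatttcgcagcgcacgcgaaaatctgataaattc
TrpRS (chr3R:9266855-9267154, minus strand): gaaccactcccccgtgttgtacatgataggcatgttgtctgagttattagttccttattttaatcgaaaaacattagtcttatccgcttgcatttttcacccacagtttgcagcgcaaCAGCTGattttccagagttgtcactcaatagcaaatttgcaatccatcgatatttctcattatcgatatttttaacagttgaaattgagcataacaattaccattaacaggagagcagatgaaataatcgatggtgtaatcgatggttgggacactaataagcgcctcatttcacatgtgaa
ProRS-m (chr3L:2651801-2652100, minus strand): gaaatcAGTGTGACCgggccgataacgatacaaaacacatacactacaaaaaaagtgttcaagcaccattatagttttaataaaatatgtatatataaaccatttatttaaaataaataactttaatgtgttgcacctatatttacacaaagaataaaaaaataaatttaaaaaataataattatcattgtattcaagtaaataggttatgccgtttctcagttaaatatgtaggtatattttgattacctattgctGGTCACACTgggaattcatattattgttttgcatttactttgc
GlnRS (chr3R:25265672-25265971, minus strand): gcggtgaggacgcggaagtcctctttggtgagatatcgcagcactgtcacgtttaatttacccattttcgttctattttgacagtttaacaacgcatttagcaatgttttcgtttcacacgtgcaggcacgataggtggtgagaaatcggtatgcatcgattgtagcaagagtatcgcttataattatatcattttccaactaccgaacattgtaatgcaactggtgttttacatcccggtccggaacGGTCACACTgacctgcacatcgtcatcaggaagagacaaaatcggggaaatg
Positions count the TSS as 1 and the base before it as -1. The pair of E-boxes in TyrRS, a gene that was not bound, began at -45 and -33 from the TSS, and the match in TrpRS at -132. The M1BP match in GlnRS began at -2, and those in ProRS-m at -244 and 8. In the AspRS-m promoter the centre of the M1BP match fell on the summit base, at 0 bp. In bound members the centres of the CAGCTG matches of these windows lay from -165 bp (alpha-PheRS) to 180 bp (GluProRS) of the summit.

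Among 17 genes that work with the synthetases, 11 were bound (64.7%, 95% Wilson interval 41.3 to 82.7), beside 32.8% of all protein-coding genes. The count was 7 with summits within 100 bp of a TSS (21.6% of all genes) and 7 with peaks matched in both replicates (25.2%). Of the scaffold genes of the complex, AIMP1 had 4.04 and 7.19 times the median in replicates 1 and 3, at a peak nearest PAN2, AIMP3 had 2.56 and 0.744, and AIMP2 was not bound. Slimp, a paralogue of the mitochondrial seryl enzyme, had 1.89 and 2.37. Of the amidotransferase subunit genes GatA had 6.37 and 9.40, at a peak nearest P5cr, and GatC had 3.42 and 3.97, at a peak nearest Polr2C, while GatB was not bound. Of the genes that answer to uncharged tRNA, Gcn2 had 2.44 and 1.65, at a peak nearest Ugt35D1, and crc had 2.82 and 1.21.

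Elongation factor genes, whose products bring charged tRNA to the ribosome, completed that list. In the cytoplasmic set eEF1gamma had 7.43 and 10.8, eEF1alpha1 had 5.04 and 3.45, at a peak nearest ERp60, and eEF1beta had 2.80 and 2.21. In the mitochondrial set mEFTs had 2.27 and 3.13. Not bound were eEF1alpha2, eEF1delta, mEFTu1 and mEFTu2. With peaks nearest the gene's own TSS only, 7 of the 17 were bound, beside 26.4% of all genes.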

How the data were processed

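Regions were read from 4 deposited peak lists on dm6: 1 for each replicate, 1 for the pooled reads and the IDR-thresholded set. Per the deposited file descriptions, each list was called against 1 control alignment shared by both replicates, and the thresholded set was derived from the other 3. Chromatin was sonicated to 200 to 800 bp, per the labels. Which aligner and which caller made them is not given in the sources used here. The deposited signal value of a region has a scale that differs between lists, and the deposited -log10 q-value stops at 4.23, reached by 8539 pooled regions, so it was not used. The authors gave no read counts, so depth is unknown and intervals cover counting error only.

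Start sites came from the Ensembl 115 annotation of the same assembly, without transposable elements and pseudogenes. A bound member's value in a replicate is that of the strongest region within 100 bp of its thresholded summit. A gene not bound takes its strongest region within 250 bp of a TSS. Sequence came from the RefSeq copy of the assembly, where no annotated gene ran past a chromosome end. No TSS window of a member (45 windows of 250 bp to each side) had a second copy at 90% identity over 100 bp, by BLAST+ 2.17.0. The code for calling was checked on simulated data, where 200 of 200 genes with a planted summit were recovered. Each summit was planted inside the 250 bp window, so this checks the code and not the rule's performance on ChIP data.

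There is 1 group, so no test between conditions was made, and shares are given beside those of all protein-coding genes. Every member is named. Sequences were taken by mean percentile, with none from arm 2R, and the order within the motif set was chosen after values were seen. The members and lists were chosen with earlier results of these data known. Alternatives were other windows, peak sets, single replicates, assignments and call rules. Software was Python 3.11.15 with numpy 2.4.6, pandas 2.3.3, statsmodels 0.14.6 and matplotlib 3.10.9.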

Additional observations from a re-analysis of the deposited data

How the results depend on the processing

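The counts of bound members, of cytoplasmic, of mitochondrial genes and of amino acids with both enzymes bound, and the median distance and signal, changed as follows. In the strongest 3422 thresholded peaks 13 members, 3 of them mitochondrial, were bound, 1 amino acid had both enzymes bound, the median distance was -80.0 bp and the median signal 4.70 times the pooled median. In the strongest 1711 the values were 8 members, 6 cytoplasmic, 2 mitochondrial, 0 amino acids, -71.0 bp and 5.96. As reported, distance and signal were -54.5 bp and 3.67. Peaks matched in both replicates left 5 mitochondrial genes and 2 amino acids, and peaks nearest the gene's own TSS left 2 amino acids. The whole pooled list gave 12 amino acids and a signal of 2.79. These sets hold fewer or more regions by construction.

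Without replicate 1 or replicate 3 the members bound were 22 to 23, cytoplasmic 14 to 17, mitochondrial 5 to 9, amino acids 3 to 6, median distance -67.5 to -47.0 bp and signal 2.94 to 4.04. Leaving out cytoplasmic genes with no separate mitochondrial gene left 10 bound of 15. In the window of 100 bp to each side of the TSS, member promoters with a match changed to 1 for the Myc-Max E-box, 5 for the ATF4 element, 12 for the TATA box and 3 for GAGA, and the cause was not tested. Counts by class, complex, partner list and divergent neighbour under the same alternatives were added after seeing the data, of which 19 moved by over 1.5 times and 59 did not. Beside those in the smaller peak sets, they were the complex (2 of 8 at 100 bp, 8 in the whole pooled list and 1 with own-TSS peaks, from 5), class I (16 in the whole pooled list, from 9), partner genes (7 at 100 bp, with matched peaks and with own-TSS peaks, from 11) and members with a divergent neighbour (9 with own-TSS peaks, from 15). In the strongest 3422 and 1711 peaks class I had 5 and 4, class II 7 and 3, the complex 3 and 3, and partner genes 5 and 4. Members without a divergent neighbour had 3 and 2, and those with one had 6 in the strongest 1711. No paired analysis was possible because there is 1 group. With 2 replicates and unknown depth, a gene near the threshold cannot be told apart from one just past it.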
